A study of Homo sapiens with 16 samples.

Results

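The immediate early genes Fos, Fosb, Jun, Junb, Egr1, Egr2, Egr3, Atf3, Nr4a1 and Ier2, 10 of the 32285 genes counted, were followed across every cell cluster of 2 mouse mammary tumor models. They were chosen by name, and the values that put them forward are their levels in these same cells, so those levels are given as a description without any test. For each gene the unique molecular identifiers (UMIs, one per captured mRNA molecule) were summed over the cells of a cluster and an experiment and divided by all UMIs of those cells, in counts per 1e+06 UMIs (CPM). The tumors, LPA1-T22 and LPA1-T127, are serially transplanted tumors from mice that express the lysophosphatidic acid receptor LPA1 in the mammary epithelium, grown in female FVB mice that were 6 weeks old at purchase. Mice received vehicle or the PARP inhibitor olaparib, 50 mg/kg daily by oral gavage. The short-term T22 experiment and the short-term T127 experiment each pooled vehicle and olaparib tumors of their own model after 4 and 8 days. The long-term experiment pooled both models, transplanted alone or together into the same mouse, after 20 days of olaparib or vehicle, and in mice with both tumors LPA1-T22 was placed 14 days before LPA1-T127. All tumors were enzymatically dissociated with a tissue homogenizer, and their cells were tagged with hashtag antibodies, pooled, cleared of dead cells and captured in droplets. Because the hashtag of each cell is not in the files used here, vehicle and olaparib cells lie together in every value, and each experiment counts as 1 sample. The long-term experiment differs from the short-term ones in treatment time, in transplant setting and in its separate captures. Outside the malignant clusters it also differs in the mix of models. These differences cannot be told apart. T22 and T127 share their treatment times and hold a single model each. The paper's methods give assignment to treatment as 14 days after transplant for T22 and 10 days for T127. Its results on the short-term tumors give 14 days of growth before olaparib without a difference between models. The model cannot be told apart from any such difference in time or from the separate captures.

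Immediate early genes are transcribed within minutes of a stimulus without new protein synthesis, because the factors that switch them on, such as SRF with its ternary complex partners and CREB, are already present and only need to be phosphorylated. Many of their products are themselves transcription factors, among them the Fos and Jun subunits of AP-1, and their mRNAs are short-lived. Induced inhibitors such as Dusp1 and Zfp36 help to end the response, by shutting down the kinases or degrading transcripts. In tissue work they are well known both as readouts of growth factor and stress signalling and as genes that respond to enzymatic dissociation.

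After the deepest copy of each barcode shared between long-term pools had been kept, 48824 of 53946 cells remained in 16 pools: 25723 long-term cells in 8 pools, 15094 T22 cells in 4 and 8007 T127 cells in 4. Long-term pools 1 and 2 shared 3939 barcodes, with the same cluster name in 52.4% of them, and pool 3 had 987 barcodes in common with pool 1 and 1082 in common with pool 2. The median UMI count per cell was 9548.5 to 11720.5 in the long-term pools, 7730 to 8528 in the T22 pools and 22712 to 26017 in the T127 pools. Mitochondrial transcripts held 0.713 to 0.75% of UMIs in long-term pools 1 to 4, 1.05 to 1.11% in long-term pools 5 to 8, 1.16 to 1.23% in T22 and 2.25 to 2.49% in T127. Cells carry the authors' names of 22 clusters. Markers of fibroblasts, endothelium, plasmacytoid dendritic cells, NK, T and B cells peaked in the clusters so named. Of the 5 macrophage and monocyte markers, Csf1r, C1qa, Cd68 and Cd14 peaked in macrophage clusters, and Adgre1 peaked in the T127 cells named CD16-CDKN1C at 230 CPM. The epithelial adhesion genes did not mark all clusters named malignant: Epcam was at 3.30 and 5.87 CPM in long-term Malign_0 and Malign_1, against 922 and 2780 CPM in Malign_2 and Malign_3, and Cdh1 was below 1 CPM in Malign_0 and Malign_1. Krt8, a keratin of simple epithelia, was nevertheless at 735 and 480 CPM in long-term Malign_0 and Malign_1. Malign_0 and Malign_1 held at least 50 cells in the long-term and T127 experiments, and Malign_2 and Malign_3 in the long-term and T22 experiments.

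Among the 21 long-term clusters with at least 50 cells, the 10 genes together were highest in Malign_1, then in the inflammatory fibroblasts (i_CAF) and the Macro-M2 macrophages, and lowest in the CD8 T cells (CD8_Tn-CCR7) and Malign_0. In Malign_1 the summed level was 18849 CPM in the lowest long-term pool, 23219 in the median and 26747 in the highest. In i_CAF it was 7123, 9177 and 11492 CPM, and in Macro-M2 4994, 5405 and 6225 CPM. The pool values of these 3 clusters did not overlap, whereas Macro-M1, a little below at 4427 to 6185 CPM, overlapped with Macro-M2. Malign_0 stood at 1843, 2219 and 2612 CPM, close to the CD8 T cells at 2136 CPM over all their cells, and the highest cluster was 11.3-fold above the lowest.

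The short-term experiments had the same fibroblasts and macrophages near the top. In T22 (17 clusters) i_CAF stood at 8491, 7963, 8734 and 8422 CPM in its 4 pools. Macro-M2 followed with 5457, 6227, 4912 and 5969 CPM, and the endothelial cells with 4887, 7446, 5708 and 4421 CPM. i_CAF lay above the others in every pool, and Macro-M2 and endothelial cells overlapped. In T127 (14 clusters) Malign_1 stood at 17016, 17720, 18313 and 17822 CPM. The i_CAF values of the 3 pools with at least 20 such cells were 12138, 10805 and 9027 CPM, and Macro-M2 had 8600, 9826, 9468 and 8385 CPM. Malign_1 lay apart from both, which overlapped with each other, and the lowest T127 cluster was that of the plasmacytoid dendritic cells (pDC) at 1826 CPM.

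**Figure D1:**
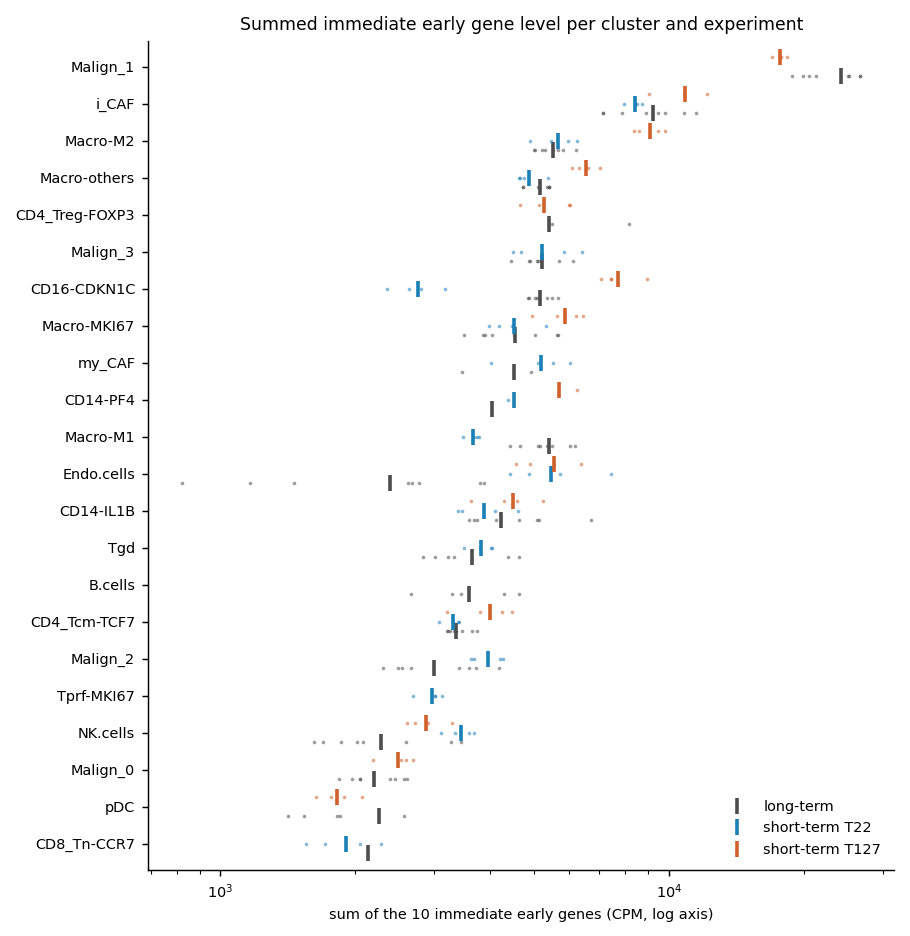
Sum of the 10 immediate early genes (CPM, log axis) per cluster, with the experiments in separate colours, a large marker for the level over all cells and small points for pools with at least 20 cells of the cluster. Malign_1 stands furthest to the right at 24142 CPM in the long-term and 17708 CPM in the T127 experiment, while Malign_0 stands at 2201 and 2493 CPM.

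Each gene had its own order of clusters, and levels are compared here only between clusters within a gene. Fos, the AP-1 subunit that must pair with a Jun protein to bind DNA, was highest in long-term Malign_1 at 6537 CPM and i_CAF at 3065 CPM and lowest in CD8 T cells at 202 CPM. Fosb, a paralogue of Fos that gives rise to the longer lived splice form ΔFosB, was highest in long-term Malign_1 (321 CPM) and i_CAF (301 CPM), but in T127 it was highest in Macro-M2 (1204 CPM), with i_CAF (1141 CPM) and Malign_1 (1103 CPM) at overlapping pool values. Jun, which can also bind DNA as a homodimer, and Egr1, a zinc finger factor induced through SRF, had Malign_1 and i_CAF in the top places of both experiments that hold Malign_1. Junb, a Jun paralogue with prominent roles in T cells and the skin, ranked some lymphocytes high: after Malign_1 at 6929 CPM, the regulatory T cells (CD4_Treg-FOXP3) followed at 3857 CPM and gamma delta T cells at 2352 CPM in the long-term experiment, and in T22 gamma delta T cells, CD4 T cells and NK cells led with 1952, 1840 and 1791 CPM. Not all lymphocytes did so, since long-term NK cells at 1317 CPM and CD8 T cells at 1176 CPM lay below the median cluster at 1486 CPM. Ier2, a small nuclear protein of the immediate early response, was at 3672 CPM in long-term Malign_1 and at no more than 624 CPM in any other long-term cluster.

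Atf3, a stress-induced member of the ATF/CREB family that often acts as a repressor, was highest in long-term Macro-M1 at 539 CPM, Macro-others at 475 CPM and CD16-CDKN1C at 467 CPM and lowest in CD8 T cells at 6.51 CPM. Over all long-term cells, Malign_3 (354 CPM), Malign_1 (350 CPM) and i_CAF (278 CPM) stood above the myeloid clusters CD14-PF4 (254 CPM) and CD14-IL1B (191 CPM). The pools of Malign_3 (258 to 409 CPM) and Malign_1 (196 to 444 CPM) overlapped with those of CD14-IL1B (129 to 348 CPM). In long-term pools 1 to 4 i_CAF was below CD14-IL1B, at 135 against 217 CPM, and in pools 5 to 8 above it, at 385 against 178 CPM. Nr4a1, an orphan nuclear receptor induced by antigen receptor signalling in T cells, was highest in long-term regulatory T cells at 350 CPM and lowest in Malign_0 at 13.3 CPM. Egr2 and Egr3, zinc finger relatives of Egr1 known from T cell tolerance and macrophages, had the lowest counts of the members. Egr2 was highest in i_CAF in the long-term (38.2 CPM) and T22 (194 CPM) experiments and in Macro-M2 in T127 (143 CPM). Egr3 was highest in B cells (57.0 CPM) in the long-term experiment, in CD14-IL1B cells (236 CPM) in T22 and in i_CAF (168 CPM) in T127. Only Atf3 and Nr4a1 had neither Malign_1 nor i_CAF among the top 3 clusters of any experiment.

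Malign_1 and Malign_0 differed in all 10 genes. Both clusters came from the same pools and were of like depth, with median counts of 20459.5 and 19775 UMIs per long-term cell and 31962 and 36205 UMIs per T127 cell. The authors' clustering used these cells' expression, so the difference between the clusters is a description of what sets them apart. Fos in Malign_1 was 4427 CPM in the lowest long-term pool, 6243 in the median and 7721 in the highest, and 3093, 2910, 2971 and 3335 CPM in the T127 pools. In Malign_0 it was 146, 278 and 476 CPM in the long-term pools and 138, 198, 161 and 182 CPM in T127. Every Malign_1 pool lay above every Malign_0 pool. Taken over all cells, Fos was 23.7-fold higher in Malign_1 in the long-term experiment (pool ratios 16.2 to 35.9) and 18.2-fold higher in T127.

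Atf3 showed the widest gap of the members. It was 196, 329 and 444 CPM in the lowest, median and highest long-term pool of Malign_1 and 6.12, 10.2 and 20.0 CPM in Malign_0, a 31.0-fold difference with pool ratios of 19.6 to 49.1. In T127 the Malign_1 pools had 169, 189, 154 and 180 CPM of Atf3 and the Malign_0 pools 3.84, 6.02, 5.07 and 5.70 CPM, a 33.7-fold difference. Again no pool of either cluster overlapped with the other. The other long-term ratios were 17.0 for Fosb, 14.7 for Egr1, 12.1 for Ier2, 11.9 for Egr2, 9.52 for Nr4a1, 9.35 for Junb and 6.41 for Jun. Egr3 differed least, with 15.8 against 9.44 CPM in the long-term experiment, a ratio of 1.68, and 51.4 against 17.8 CPM in T127, a ratio of 2.89. The summed level was 10.97-fold higher in the long-term experiment (95% interval 10.9 to 11.0, pool ratios 9.61 to 11.2) and 7.10-fold higher in T127 (7.07 to 7.13, pool ratios 6.63 to 7.77). All intervals are exact and cover counting error only. Beside these ratios, 1.19% of 11989 genes with at least 50 UMIs were past 2-fold higher in long-term Malign_1, and 1.37% of 12754 genes in T127.

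**Figure D2:**
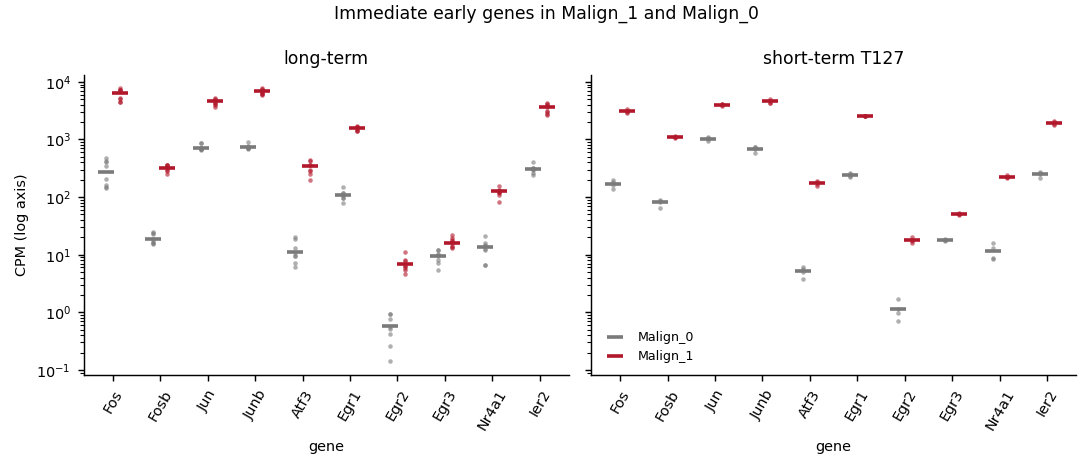
Level of each immediate early gene (CPM, log axis) in Malign_1 and Malign_0, long-term pools on the left and T127 pools on the right, with a point per pool. The pools of the clusters stand well apart for Fos and Atf3, and Egr3 shows the smallest gap, at 15.8 against 9.44 CPM in the long-term experiment.

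Genes of the same response moved with the members between these clusters to unequal degrees. Of 13 feedback inhibitors, a list that holds MAP kinase phosphatases, inhibitors of NF-κB and cytokine signalling and an mRNA-destabilizing protein, 10 were past 2-fold higher in Malign_1 in each experiment. The 4 with the most UMIs were past 2-fold: Btg2, an antiproliferative gene, was at 696 against 53.1 CPM, Dusp1, a MAP kinase phosphatase, at 1211 against 128 CPM, Nfkbia, the inhibitor of NF-κB, at 1317 against 293 CPM and Ier3 at 1452 against 343 CPM in the long-term experiment. Of the other immediate early transcription factors, 7 of 13 with enough UMIs were higher in the long-term and 12 of 14 in the T127 experiment. Of the 4 with the most UMIs, Jund at 2795 against 797 CPM, Klf6 at 799 against 181 CPM and Klf4 at 805 against 191 CPM were past 2-fold in the long-term cells, and Cebpb at 1609 against 1013 CPM was not. Heat shock genes differed less, with 2 of 10 past 2-fold in the long-term experiment and 1 of 10 in T127. Hspb1, a small heat shock protein, was at 3161 against 1413 CPM, Hspa8, the constitutive chaperone, at 1206 against 973 CPM, Hsp90aa1 at 640 against 579 CPM and Hspe1 at 641 against 672 CPM. None of the 10 upstream regulators, the kinases and factors that act before the response, was past 2-fold in either experiment, and of those with the most UMIs Elk3 was at 234 against 280 CPM, Mapk3 at 175 against 183 CPM and Mapk14 at 18.1 against 14.7 CPM in the long-term cells. Mitochondrial transcripts were at 1.03% in long-term Malign_1 and 1.31% in Malign_0, and at 2.47 and 2.66% in T127. Whether dissociation had a part in the difference was not tested.

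Malign_3 and Malign_2 differed mainly in Atf3. In Malign_2 Atf3 was 29.1, 42.7 and 67.6 CPM in the lowest, median and highest long-term pool, and in Malign_3 258, 356 and 409 CPM. In T22 it was 62.6, 57.1, 61.2 and 55.3 CPM in Malign_2 and 293, 391, 243 and 344 CPM in Malign_3. The ranges were far apart in both, with ratios of 8.29 (pool ratios 6.00 to 12.1) and 5.31 (3.97 to 6.84). The summed level was only 1.74-fold and 1.32-fold higher in Malign_3, Jun was 2.02-fold and 1.76-fold higher, and Egr2 went the other way with ratios of 0.551 and 0.343. Among all genes with enough UMIs, 9.18% were past 2-fold higher and 10.3% lower in long-term Malign_3, and 9.45% and 12.1% in T22. Among the fibroblasts, i_CAF had 2.04-fold the summed level of the myofibroblast-like cluster my_CAF in the long-term experiment, where only 2 pools held enough cells of both, and 1.62-fold in T22 (pool ratios 1.41 to 2.10), beside 16.8% and 11.6% of genes past 2-fold higher in i_CAF. The widest fibroblast gap in T22 was that of Egr2, at 194 CPM in i_CAF against 28.8 CPM in my_CAF, a ratio of 6.76 with pool ratios of 3.91 to 14.4.

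The next question was whether the cell types of an experiment shift together, which was read from the clusters with at least 50 cells in both experiments compared. As below for the pools, at least 3 in 4 clusters on the same side was taken as the bar. The summed level reached it in both comparisons with T127 and not between T22 and long-term, but so did much of the transcriptome: of all genes compared in at least 10 clusters, 50.7% were above long-term and 38.0% above T22 in at least 3 in 4 clusters of T127. T22 against long-term was above 1 in 8 of 16 clusters and below 1 in 8, with a median ratio of 0.996. It ranged from 0.535 in CD16-CDKN1C to 2.29 in endothelial cells. T127 against long-term was above 1 in 11 of 14 clusters, with a median of 1.22, from 0.733 in Malign_1 to 2.32 in endothelial cells. T127 against T22 was above 1 in 9 of 10, with a median of 1.28, from 0.835 in NK cells to 2.80 in CD16-CDKN1C. Relative to the median gene of each cluster the counts above were 5 of 16, 9 of 14 and 8 of 10, so that T127 against long-term no longer reached 3 in 4. The pool ranges of the experiments were apart in 3 of 14, 5 of 13 and 4 of 9 clusters with at least 2 pools to compare on each side, beside 33.1%, 35.0% and 31.6% of all pairs of genes and clusters. The first 2 comparisons share the long-term cells.

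Endothelial cells and CD16-CDKN1C made most of the extremes. The summed level of endothelial cells was 822 CPM in the lowest long-term pool, 2646 in the median and 3875 in the highest, against 4421 to 7446 CPM in T22 and 4573 to 6374 CPM in T127. CD16-CDKN1C cells were at 2634, 2350, 3162 and 2799 CPM in the T22 pools and at 8940, 7065, 7414 and 7423 CPM in the T127 pools. These T22 cells lay below every other pool of this cluster. They were also the shallowest, with a median of 2407 UMIs per cell against 4706 in the long-term and 4922 in the T127 experiment, and no more than 1643 of 4205 had 3000 UMIs or more, against 3998 of 5979 and 283 of 402. Of these deeper cells, thinned to 3000 UMIs, 26.0% had no UMI of any member, against 6.78% and 3.53%. The part of depth in that difference was not tested.

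Against long-term, members past 2-fold were mostly higher. Ratios are given on a log2 scale of CPM + 1 for pairs of gene and cluster with at least 50 UMIs over both experiments, and a pair past 2-fold is called higher or lower. Between T127 and long-term 13 of the 140 pairs of members and clusters had too few UMIs, and of the others 46 were higher and 7 lower, beside 14.3% higher and 4.76% lower of all pairs of genes and clusters. Between T22 and long-term 44 of 151 pairs were higher and 7 lower, beside 11.1% and 3.48%. The lower member pairs, 5.51% in T127 and 4.64% in T22, thus lay near the share of all pairs. The pairs left out belonged to Egr2, Egr3 and Atf3, and 7 and 11 of those compared reached 50 UMIs only over both experiments together or in a single experiment. With 50 UMIs required in each experiment, 43 of 120 pairs were higher and 7 lower in T127, and 40 of 140 higher and 6 lower in T22.

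The higher pairs lay almost wholly in 5 genes, a grouping made after the values had been seen. For Fosb, Egr1, Egr2, Egr3 and Nr4a1, 44 of 60 pairs were higher in T127 than in the long-term experiment and 0 lower, and 59 had a log2 ratio above 0. Between T22 and long-term 42 of their 72 pairs were higher and 0 lower, with 69 above 0. For Fos, Jun, Junb, Atf3 and Ier2, 2 of 67 pairs were higher in T127 and 7 lower, and 2 of 79 were higher in T22 and 7 lower. The middle of all genes was itself shifted: the median log2 ratio of all pairs was 0.24 for T127 and 0.23 for T22 against long-term. Relative to each cluster's own median, 39 member pairs were higher and 9 lower in T127, beside 7.84% and 7.69% of all pairs, and 32 were higher and 14 lower in T22, beside 5.52% and 5.65%.

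**Figure D3:**
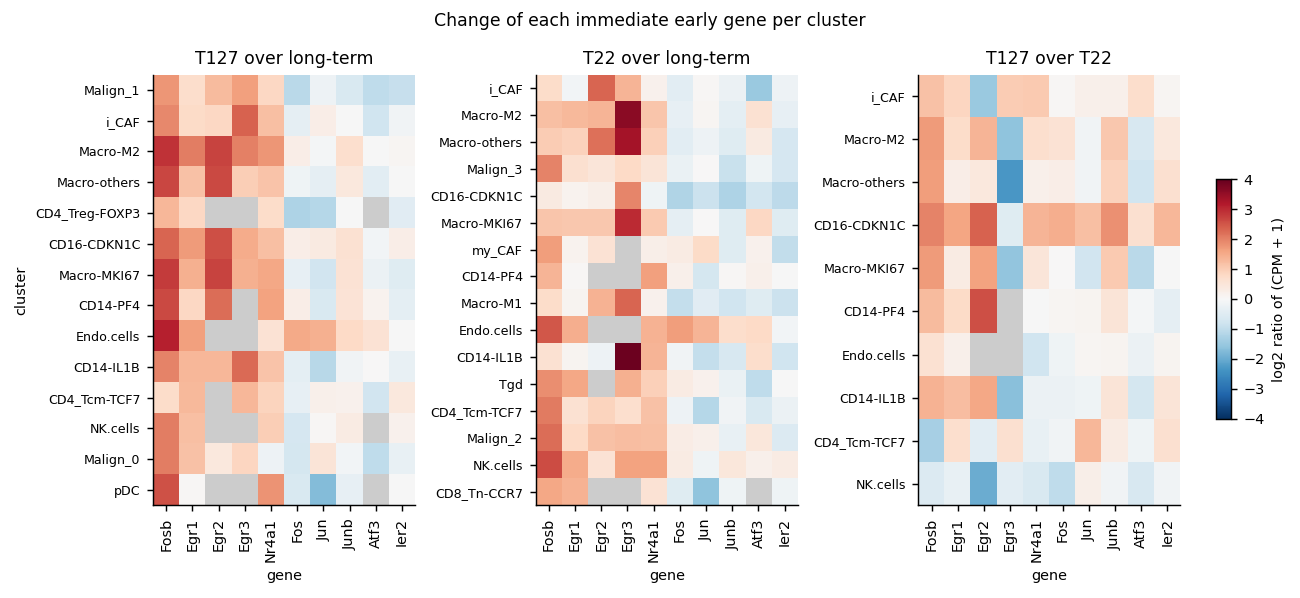
Log2 ratio of CPM + 1 for each immediate early gene (columns) and cluster (rows) in T127 over long-term, T22 over long-term and T127 over T22, red for higher and blue for lower in the experiment named before "over", and grey where the pair had fewer than 50 UMIs. The first 5 columns (Fosb, Egr1, Egr2, Egr3, Nr4a1) are red in nearly every cluster of the left and middle panels, where 59 of 60 and 69 of 72 pairs are above 0, and the other columns are pale or mixed. These 5 were grouped after the values had been seen. Of all genes compared in at least 10 clusters, 50.7% (T127) and 53.4% (T22) were above long-term in at least 3 in 4 of them.

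Of the members, Fosb was past 2-fold of the long-term level in the most clusters, while Egr2 and Egr3 could be compared in fewer. In Macro-M2 it was 120, 157 and 202 CPM in the lowest, median and highest long-term pool. The T22 pools had 377, 417, 346 and 330 CPM and the T127 pools 1112, 1291, 1320 and 1103 CPM. The experiments did not overlap and stood in the order long-term, T22, T127. In Malign_1 Fosb was 256, 330 and 363 CPM in the long-term pools and 1044, 1098, 1155 and 1120 CPM in T127. In Malign_2 it was 35.6, 78.6 and 132 CPM in the long-term pools and 347, 369, 315 and 332 CPM in T22. In NK cells it was 14.2, 30.8 and 53.4 CPM in the long-term pools, 254, 177, 151 and 168 CPM in T22, and 65.7, 142, 186 and 112 CPM in T127. The long-term pools were the lowest in each of these clusters, while NK cells of T127 and T22 overlapped. Over the clusters, the median ratio was 4.56 for T127 against long-term, with 13 of 14 clusters past 2-fold and CD4_Tcm-TCF7 T cells the exception at 1.69. For T22 against long-term it was 2.74, with 12 of 16 past 2-fold. Of all genes compared in at least 10 clusters, 3.96% were past 2-fold higher in at least 3 in 4 of them in T127 and 1.75% in T22. Relative to each cluster's median gene, 13 of 14 and 9 of 16 clusters remained past 2-fold, the latter below 3 in 4.

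Set against Fos in the same cells, a measure that does not depend on the total UMIs, Fosb went from a median of 8.91 UMIs per 100 Fos UMIs over 21 long-term clusters to 25.8 over 17 T22 clusters and 57.9 over 14 T127 clusters. The value ran from 4.91 in Malign_1 to 23.4 in gamma delta T cells in the long-term experiment, and from 27.5 in endothelial cells to 116 in regulatory T cells in T127. Within the long-term experiment it also shifted between sets of pools, as given below, and the pool values of Macro-M2 ran from 6.60 to 12.4. T22 was above long-term in 16 of 16 clusters, with a median ratio of 2.89, and the pool values were apart in 11 of the 14 clusters with pools to compare, beside 34.6% of pairs when every gene was set against Fos in this way. T127 was above long-term in 14 of 14, with a median of 6.14 and 11 of 13 apart, beside 31.7%. T127 was above T22 in 9 of 10, with a median of 2.18 and pools apart in 6 of 9, beside 33.8%, and CD4_Tcm-TCF7 T cells were the exception at 0.435. In those T cells Fosb was 214, 265, 262 and 216 CPM in the T22 pools and 121, 101, 114 and 54.0 CPM in T127. This was the only Fosb value past 2-fold lower in T127 than in T22, against 7 of 10 higher, beside 7.12% and 6.66% of all pairs of genes and clusters.

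**Figure D4:**
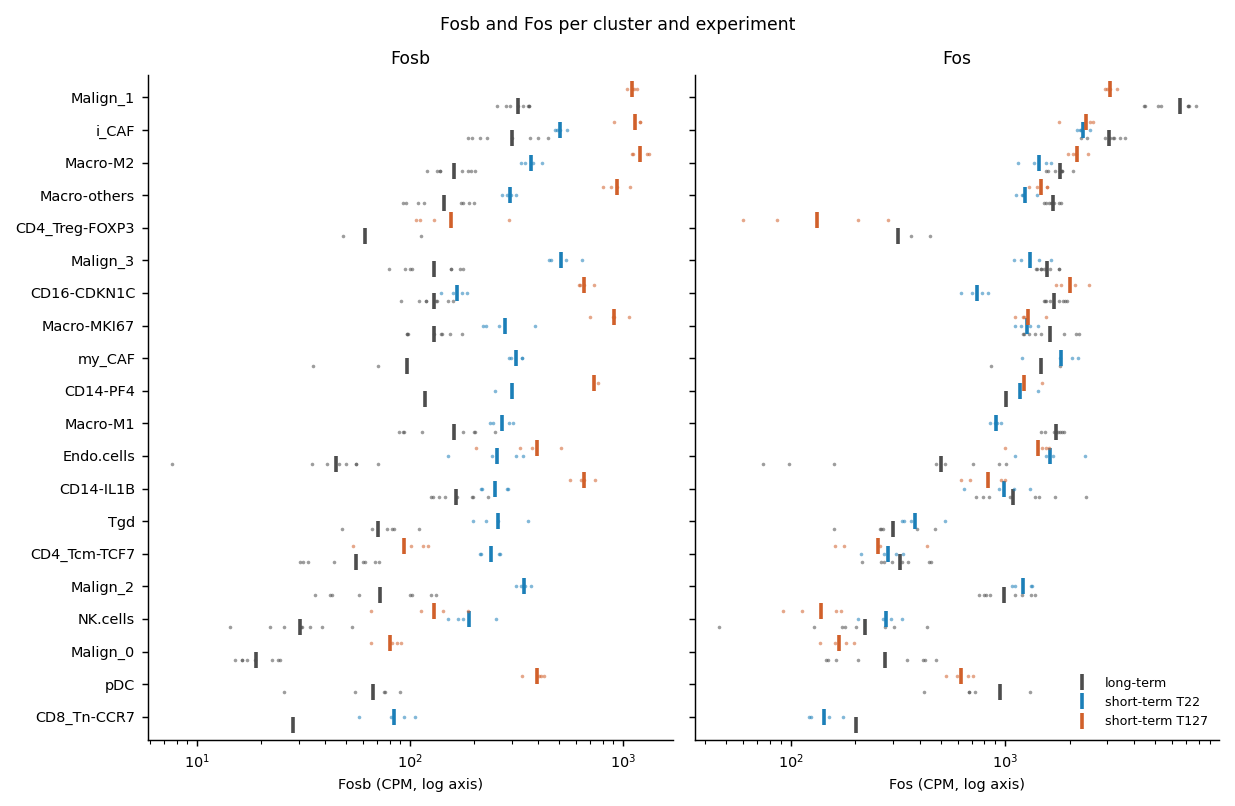
Fosb (left) and Fos (right) in CPM on log axes per cluster, with the experiments in separate colours, large markers for the level over all cells and small points for pools. Fosb steps from long-term to T22 to T127 in Macro-M2, at 160, 368 and 1204 CPM, whereas Fos stands at 1794, 1440 and 2158 CPM there.

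Egr1 and its relatives moved by amounts that depended on the cluster. Egr1 in Macro-M2 was 124, 151 and 188 CPM in the lowest, median and highest long-term pool, 359, 386, 270 and 475 CPM in T22 and 500, 795, 678 and 561 CPM in T127. Both short-term experiments lay above the long-term range and did not overlap with each other. In i_CAF, by contrast, T22 had 1231, 1121, 1313 and 1162 CPM of Egr1, within the long-term range of 829 to 1709 CPM, and T127 had 2539, 2090 and 1951 CPM, above it. The median Egr1 ratio was 2.28 for T127 (9 of 14 clusters past 2-fold) and 1.66 for T22 (6 of 16), beside 14.3% and 11.1% of all pairs, or 6 of 14 and 5 of 16 relative to each cluster's median gene, beside 7.84% and 5.52%.

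Egr2 and Egr3 parted from each other in the short-term experiments. Egr2 in i_CAF was 24.0, 43.5 and 48.9 CPM in the lowest, median and highest long-term pool, 195, 242, 171 and 174 CPM in T22 and 63.5, 100, 82.3 CPM in the T127 pools with enough cells. T22 was the highest there, but in Macro-M2 T127 was, with 126, 156, 155 and 134 CPM against 53.3, 49.6, 57.5 and 61.1 CPM in T22. Egr3 in CD14-IL1B was 5.01, 12.4 and 26.2 CPM in the long-term pools, 221, 237, 169 and 327 CPM in T22, and 71.1, 132, 70.4 and 38.7 CPM in T127. All T22 pools lay above all others in that cluster, and the ratio of T22 to long-term was 16.2 (13.0 to 20.4). In Macro-M2 Egr3 likewise had its highest value in T22, at 108 CPM against 34.9 in T127 and 7.94 in the long-term experiment. In i_CAF the genes were reversed, with Egr3 at 168 CPM in T127 against 82.6 CPM in T22, a ratio of 2.03 with pools apart. The median ratio of T127 to T22 over the clusters was 2.55 for Egr2 (9 clusters) and 0.492 for Egr3 (8 clusters). Egr2 was past 2-fold higher in 7 of 9 clusters and Egr3 in 7 of 9 for T127 against long-term, and in 6 of 12 and 10 of 12 for T22, beside the same shares. The median ratios of Egr2 and Egr3 against long-term were 4.72 and 2.81 for T127, and 1.99 and 3.46 for T22. Relative to each cluster's median gene the counts were 6 of 9 and 7 of 9 for T127, and 3 of 12 and 9 of 12 for T22, beside 7.84% and 5.52% of all pairs.

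Nr4a1 had median ratios of 2.19 and 2.00 against the long-term experiment, with 8 of 14 clusters past 2-fold in T127 and 8 of 16 in T22, beside 14.3% and 11.1% of all pairs. Relative to each cluster's median gene the counts were 5 of 14 and 4 of 16, beside 7.84% and 5.52%. In Macro-M2 it was 150, 179 and 226 CPM in the lowest, median and highest long-term pool, 401, 429, 333 and 403 CPM in T22 and 644, 647, 586 and 605 CPM in T127. In NK cells it was 41.9, 152 and 265 CPM in the long-term pools, 413, 411, 371 and 552 CPM in T22 and 394, 242, 236 and 298 CPM in T127. The macrophage values stood in the same order as Fosb, and the NK cells of T127 overlapped with both other experiments.

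Fos, Jun, Junb, Atf3 and Ier2 were within 2-fold of the long-term level in most clusters. The median T127 ratios were 0.783, 0.910, 1.19, 0.848 and 0.950 in that order, and the median T22 ratios 0.855, 0.944, 0.789, 1.15 and 0.755. The T22 medians of Jun and Atf3 had no firm direction: that of Atf3, 0.20 on the log2 scale, kept its sign in 22 of 25 settings, with -0.068 against long-term pools 1 to 4 and -0.0016 relative to the median gene, and that of Jun, -0.083, in 23 of 25, with 0.016 without CD16-CDKN1C. In T22 Ier2 was below long-term in 15 of 16 clusters and Junb in 13 of 16, and 24.8% of all genes were likewise below in at least 3 in 4 clusters. The pools were apart in 6 of 14 clusters for Ier2 and 8 of 14 for Junb, beside 33.1% of all pairs. Relative to each cluster's median gene, T22 was past 2-fold lower in 4 of 16 clusters for Jun and in 3 of 16 each for Junb and Ier2, beside 5.65% of all pairs. In Malign_1 Fos was past 2-fold lower in T127, at 3074 against 6537 CPM with no overlap of pools, and Atf3 was at 172 against 350 CPM, also without overlap, although its pools reached from 154 to 189 and from 196 to 444 CPM. Fos and Jun were past 2-fold higher than long-term only in endothelial cells, where Fos was at 1424 CPM in T127, 1613 CPM in T22 and 502 CPM in the long-term experiment. The long-term pools of Fos there ran from 74.7 to 1013 CPM and overlapped with T127, whose lowest pool had 995 CPM, but not with T22. The long-term endothelial cells were shallower, with a median of 3426 UMIs per cell against 8416 and 8779.5. Jun was past 2-fold lower in 3 of 14 clusters of T127, beside 4.76% of all pairs. These were pDC, at 238 against 798 CPM, regulatory T cells and CD14-IL1B. Fosb was past 2-fold higher in pDC, at 395 against 66.7 CPM, and in regulatory T cells, at 155 against 61.3 CPM with overlapping pools. Junb and Ier2 were past 2-fold of long-term in a single cluster, the T22 CD16-CDKN1C cells, both lower.

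Between the short-term experiments themselves, 24 of 97 member pairs were past 2-fold higher in T127 and 9 lower, beside 6.66% and 7.12% of all pairs. Of the 24, 8 lay in CD16-CDKN1C, where 11.1% of genes were past 2-fold higher. Relative to each cluster's median gene the counts were 22 and 8, beside 5.74% and 7.85%. Junb was higher in T127 in 9 of 10 clusters, with a median ratio of 1.42. Of all genes, 38.0% were likewise above T22 in at least 3 in 4 clusters. Junb was past 2-fold in 3, all of them myeloid, as were most of the clusters compared. In Macro-M2 it was 1265, 1605, 1363 and 1287 CPM in T22 and 2787, 2943, 3206 and 2739 CPM in T127, with no overlap. The 9 lower pairs, 9.28% of the member pairs, lay near the share of all pairs. Of them 4 were of Egr3 and 2 of Egr2, and Egr2 was lower in i_CAF and NK cells only.

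Other genes of the response were read from 4 lists. Between T127 and long-term, 48 of 163 pairs of the other immediate early transcription factors were higher and 13 lower, 43 of 172 of the feedback inhibitors higher and 6 lower, and 43 of 119 of the upstream regulators higher and 0 lower. Of the heat shock pairs 5 of 131 were higher and 25 lower, and of the lower pairs 11 belonged to Hspb1, 7 to Hspa1a and 5 to Hspa1b. Not every gene of the list was lower. The chaperone Hsp90aa1 was above long-term in 13 of 14 clusters and Hsph1 in 11 of 11, within 2-fold. Of all genes, 50.7% were likewise above in at least 3 in 4 clusters. Hspa1a, Hspa1b and Hsph1 were picked after their values were seen. Between T22 and long-term the counts were 47 and 14 of 192, 29 and 16 of 194, 27 and 0 of 145, and 6 and 17 of 153 in the same order. Beside these stand the shares of all pairs given above, 14.3% higher and 4.76% lower for T127 and 11.1% and 3.48% for T22, and the T22 feedback inhibitors at 14.9% higher lay near theirs. Picked after their values were seen, the Nr4a1 relatives Nr4a3 and Nr4a2 were past 2-fold higher in T127 than long-term in 12 of 13 and 11 of 12 clusters, and in 14 of 14 and 10 of 14 for T22. Tnfaip3, an inhibitor of NF-κB signalling, was higher in 12 of 13 clusters of T127 and 11 of 15 of T22, and Hspb1 was lower in 11 of 14 and 10 of 14. In T22 Nr4a2, Tnfaip3 and Hspb1 thus stayed below 3 in 4. Of all genes compared in at least 10 clusters, 3.96% (T127) and 1.75% (T22) were higher and 1.04% (T127) lower in at least 3 in 4 of them. T127 also had the highest share of mitochondrial transcripts of the experiments and the lowest share of ribosomal protein transcripts, 12.0 to 14.8% against 16.1 to 17.6% in the long-term and 20.0 to 20.5% in the T22 pools. Haemoglobin transcripts held 0.115 to 0.510% of long-term, 0.000229 to 0.0222% of T22 and 0.0516 to 0.0967% of T127 UMIs. The summed level of the red blood cell markers Hbb-bs and Hba-a1 had a median over clusters of 3238, 1.32 and 25.0 CPM. The part of RNA quality, free RNA or handling in these counts was not tested.

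Each pool was compared with the other pools of its experiment, cluster by cluster. The labels do not say which tumors a pool held, so a difference between pools can be one of tumors or of captures, and these cannot be told apart. At least 3 in 4 clusters lay on the same side for the summed level in 1 of the 8 long-term pools, pool 5, where the summed level was below that of the other pools in 11 of 14 clusters with a median ratio of 0.917. This was so in 0 of the 4 T22 pools (16 clusters) and 0 of the 4 T127 pools (12 clusters). The count depended on the cells used: it was 0 of the long-term pools with at least 1000 genes per cell, with cells thinned to 3000 UMIs or without the top 5% of cells by UMIs, and 1 and 2 of the T127 pools with at least 1000 genes and after thinning. The median ratios of the pools were 0.917 to 1.11, 0.975 to 1.06 and 0.938 to 1.06, while single clusters ranged from 0.319 to 1.73 in the long-term pools.

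The same count was made for single members. With genes of at least 50 UMIs in 10 or more clusters, 23 of 80 pairs of member and pool had at least 3 in 4 clusters on the same side in the long-term experiment, 2 of 40 in T22 and 6 of 28 in T127, where Egr2, Egr3 and Atf3 had too few clusters. Ier2 in long-term pool 4 lay above the other pools in 14 of 14 clusters and Egr1 in pool 8 in 13 of 14. Fosb lay below in 12 of 14 clusters of pools 3 and 4 and above in 12 of 14 of pool 7. Such shifts were common among all genes, at 37.9% of pairs of gene and pool in the long-term experiment, 13.0% in T22 and 35.8% in T127, and the share of the members was below that in each. This count by member was added after the values had been seen.

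The long-term pools did, however, fall into 2 sets between which the summed level moved in opposite directions in different clusters. The sets, pools 1 to 4 and pools 5 to 8, were formed after the values had been seen, and they differ in their mitochondrial share as given above and in their haemoglobin share, 0.115 to 0.133% in pools 1 to 4 and 0.369 to 0.510% in pools 5 to 8. In Malign_2 the summed level was 2310 to 2663 CPM in pools 1 to 4 and 3399 to 4177 CPM in pools 5 to 8, and in i_CAF it was 7123 to 8885 and 9469 to 11492 CPM. In Malign_1 it was 25108 to 26747 and 18849 to 21331 CPM, and in CD14-IL1B 4633 to 6701 and 3594 to 4126 CPM. Pools 5 to 8 thus lay wholly above in Malign_2, i_CAF and Macro-M1 and wholly below in Malign_1, Malign_0, CD14-IL1B and CD16-CDKN1C, and overlapped in the other 7 of 14 clusters. By gene, Fosb lay wholly above in 8 clusters and below in 0, with a median ratio of 1.51, and Egr1 above in 7 and below in 1. Fos lay above in 3 and below in 5, and Junb above in 1 and below in 5. The ratio of pools 5 to 8 over pools 1 to 4 was larger for Fosb than for Fos in all 14 clusters. It was 2.17 against 1.14 in Macro-M1, for example, and 0.757 against 0.394 in Malign_0. Fosb relative to Fos thus shifted the same way in all these clusters within the long-term experiment. How many other genes did so was not counted, and the cause was not tested. Over all member pairs, 30 of 132 were wholly above and 18 wholly below, beside 10.5% and 7.45% of all pairs of genes and clusters. Against pools 1 to 4 alone the T127 experiment had 12 lower member pairs and against pools 5 to 8 alone 4, in place of 7. The shares of all pairs against each set were not taken, so these counts cannot be read against them.

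**Figure D5:**
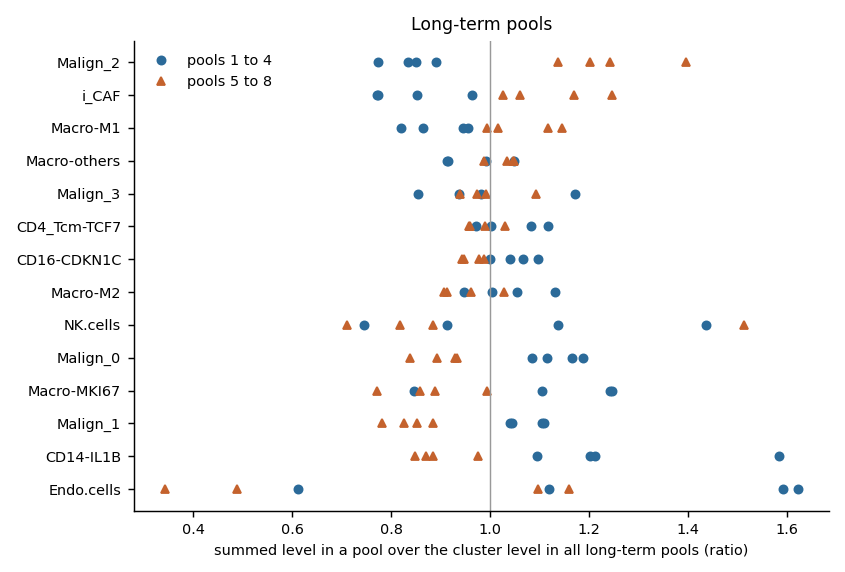
Summed level of the 10 genes in each long-term pool as a ratio to the cluster's level over all long-term pools, with pools 1 to 4 and 5 to 8 in separate colours and a line at 1. Pools 5 to 8 stand to the right in Malign_2 and i_CAF and to the left in Malign_1 and Malign_0, so the summed level of neither set is shifted the same way in all clusters.

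Within a cluster, cells with a Fos UMI also carried more of the other 9 genes. Each cell was thinned to 3000 UMIs, and shallower cells were left out. The other 9 genes were higher in cells with a Fos UMI than in cells without in all 19 long-term, 17 T22 and 11 T127 clusters with at least 20 cells of each kind, with median ratios of 3.81, 4.82 and 2.03. How often genes outside the list are higher in cells with a Fos UMI was not counted, so the count cannot be read as particular to the members. Malign_2 had the widest ratio, with 3425 against 393 CPM in the long-term experiment (8.72-fold) and 4766 against 388 CPM in T22 (12.3-fold). In the long-term and T22 experiments the narrowest ratios were in lymphocytes, at 1.57 in long-term regulatory T cells and 1.51 in T22 CD8 T cells. In T127 CD4_Tcm-TCF7 cells at 1.85 (1.63 to 2.10), Macro-MKI67 macrophages at 1.86 (1.67 to 2.08) and NK cells at 1.87 (1.66 to 2.11) stood level. The thinned cells of Malign_2 were accordingly uneven: 22.7% of the long-term and 22.1% of the T22 cells had no UMI of any member, while the most active cells, above the 90th percentile, had more than 24 and 33 UMIs. In Malign_1 nearly every cell carried member UMIs, and cells without any were 0.279% of the long-term and 0.212% of the T127 cells. The median was 66 member UMIs of 3000 in long-term and 52 in T127 cells. Their 10th percentiles were 10 and 18, so that the long-term cells also had a low tail. Malign_0 had medians of 4 and 5. No cluster is known to lack these genes, so the share of UMIs from free RNA could not be set, and its part in the ratios was not tested.

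Over the 52 combinations of cluster and experiment with at least 50 cells, the genes whose log2 level followed the mean log2 level of the 10 members most closely among 6273 genes with a mean of at least 20 CPM were Zfp36 (Pearson's r = 0.81), Klf6 (0.80), Dusp1 (0.79), Creb5 (0.77) and Klf4 (0.76). Zfp36, which encodes an mRNA-destabilizing protein, ran from 45.1 CPM in long-term Malign_0 to 898 CPM in T127 Macro-M2, and was at 543 CPM in long-term Malign_1. Among the members, Fos followed Atf3 most closely (r = 0.84) and Jun ran against Nr4a1 (r = -0.28). The points share experiments, pools and the same totals, and the values describe these combinations only.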

How the data were processed

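Per the labels and the submitters' notes, the authors aligned the reads of each pool to GRCm38 with Cell Ranger 6.0.0, filtered cells and doublets, and deposited the UMI count of every gene in every cell with a cluster name. The labels name Homo sapiens, but the mice and the gene symbols are of the mouse. Only the deposited counts were used. Where long-term pools shared a barcode, the copy with the most UMIs was kept. Counts were summed per cluster, pool and experiment and divided by the summed total to give CPM. Clusters needed 50 cells in an experiment and 20 in a pool, and ratios used a pseudocount of 1 CPM where given on the log2 scale. Exact Poisson and conditional binomial intervals (95%) were used. Each experiment is 1 sample, so no test was run, and no doublet caller was applied again. The genes, the 4 gene lists (15, 13, 10 and 10 genes) and the comparisons were chosen with earlier results of these data known. The genes named from each list are the 4 with the most UMIs, of which 1 is not reported here, apart from those said to be picked afterwards and the 5 most like the members. Alternatives changed the scaling, the cell filter, the fold and the pools, and the scripts were tested on simulated data. Library totals per experiment after removal of shared barcodes were 304653242, 166318517 and 209152008 UMIs (long-term, T22, T127). The scripts ran under Python 3.11.15 with pandas 2.3.3, numpy 2.4.6, scipy 1.17.1 and matplotlib 3.10.9.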

Additional observations from a re-analysis of the deposited data

Results flagged for a closer look

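Of 42 groups of pools examined, pool 2 of the T22 experiment stood apart from its group for the summed level of the Macro-others macrophages. It had 5389 CPM, the next pool 4750 CPM and the lowest 4642 CPM, so the gap took 0.856 of the whole range. About 1 in 20 such groups, 2.1 of 42, passes this limit by chance. Within the same pool the summed level was above that of the other pools in 10 of 16 clusters.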

How the results depend on the processing

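No paired analysis was possible because no result comes from a test and pools of different experiments share a number alone. Clusters of the same pool were set against each other by their ratio in each pool, without a test. No median over clusters past 2-fold, and neither log2 ratio of Malign_1 over Malign_0, changed sign under any alternative. Smaller medians could change sign, and single pairs of gene and cluster were not followed across the alternatives. Log2 of Malign_1 over Malign_0 was 3.45 long-term (3.38 in pools 1 to 4, 3.35 in pools 5 to 8, 3.55 without the top 5% of cells, 3.43 to 3.48 with a pool left out) and 2.83 in T127 (2.93 as a mean over cells, 2.94 thinned, 2.95 without the top 5%, 2.79 to 2.86 with a pool left out). At 4-fold, member pairs higher and lower were 18 and 0 for T127 against long-term, 2 and 1 for T127 against T22, and 11 and 0 for T22 against long-term, and at 1.5-fold the lower pairs were 16, 16 and 21. The shares of all pairs at these folds were not taken, so these counts cannot be read against them. Lower pairs for T127 against long-term were 12 and 4 with long-term pools 1 to 4 or 5 to 8 alone, 4 thinned, and 4 to 7 with a pool left out (4 without T127 pool 3). Lower pairs for T22 against long-term were 3 with at least 1000 genes per cell, 14 centred on the median gene, 11 with pools 1 to 4, 4 without CD16-CDKN1C, and 5 to 9 with a pool left out. The higher pairs were 45 to 48, 21 to 25 and 41 to 46 with a pool left out, and the lower pairs of T127 against T22 7 to 10. Apart from the counts centred on the median gene, the shares of all pairs were not taken for these alternatives either. The median log2 ratio of the summed level was 0.29 for T127 against long-term (0.086 centred, 0.20 with pools 1 to 4, 0.61 as the mean over genes, 0.27 to 0.33 with a pool left out). For T127 against T22 it was 0.36 (0.29 centred, 0.20 as the mean over genes, 0.44 as a mean over cells, 0.41 thinned, 0.30 without mitochondrial, ribosomal protein and haemoglobin UMIs, 0.23 without Junb, 0.29 to 0.36 with a pool left out). For T22 against long-term it was -0.0057 (-0.21 centred, 0.44 as the mean over genes, 0.14 without Junb, -0.025 to 0.052 with a pool left out). Pools with 3 in 4 clusters on the same side fell from 1 to 0 of the long-term pools with at least 1000 genes per cell, thinned, or without the top 5% of cells, and rose from 0 to 1 and 2 of the T127 pools with at least 1000 genes and thinned. The causes were not tested. The long-term sets of pools and the omission of CD16-CDKN1C were added after the data had been seen. Egr2 and Egr3 had the fewest UMIs of the members, and they and Atf3 lost pairs to the UMI minimum.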
